A study of Mus musculus with 2 samples.

Results

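The genes described here are 47 genes of the BMP and TGF-beta pathway, out of 55536 annotated genes, measured in whole embryonic mouse hearts. They were chosen by symbol from the GENCODE M21 gene annotation, and every symbol was found in the deposited tables. They comprise 16 ligands, 11 receptors, 8 Smads, 7 extracellular antagonists and modulators, 4 latent TGF-beta binding proteins and Tgfbi, an extracellular matrix protein named for its induction by TGF-beta. All 47 are annotated as protein-coding, and they lie on 19 chromosomes.

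PolyA RNA was sequenced from B6NCrl hearts at embryonic day 12.5 in 2 libraries, replicate 1 and replicate 2. Each library came from male and female embryos that were pooled, began from 10 ng of RNA, and carried ERCC spike-ins (synthetic RNAs of known sequence). The labels give no treatment, mutation or transgene, so there is a single group and no contrast between conditions. Both libraries are labelled as biological replicates, share a donor identifier and have biosamples of their own. Whether they are separate pools of embryos is not stated. An SD over them (n = 2) covers these libraries and not individual embryos.

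The libraries held 34248993 estimated reads on annotated genes in replicate 1 and 31394912 in replicate 2, and ERCC rows took a further 3.58% and 3.63% of all reads. Markers of heart muscle were high in both: Tnnt2, the cardiac troponin T gene, had 4164 and 4274 TPM (the deposited level, scaled for transcript length and library size). The 5 heart muscle markers summed to 20371 TPM in replicate 1 and 20524 TPM in replicate 2. The 4 erythroid markers summed to more, 32411 and 29074 TPM. All 4 markers each of endocardium, epicardium and cushion mesenchyme were also above 1 TPM in both libraries. The 5 hepatocyte markers summed to 166 TPM in replicate 1, against 35.9 TPM in replicate 2. Among 37 markers tested between the libraries by the rule given below, all 5 were called higher in replicate 1. That rule called 1.45% of all tested genes. Of the other markers 1 was called, Nkx2-1 of foregut and lung endoderm, lower in replicate 1 at 0.09 TPM, against 1.02 TPM in replicate 2. The part of these genes in the values below was not tested.

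BMPs, TGF-betas, activins and Nodal are secreted dimers that bring type I and type II serine/threonine kinase receptors together. The activated type I receptor phosphorylates receptor-regulated Smads, which enter the nucleus with the common Smad4. BMP receptors act mainly through Smad1, Smad5 and Smad9, and TGF-beta, activin and Nodal receptors through Smad2 and Smad3. In the embryonic heart these signals are known for their roles in the change of endocardium to cushion mesenchyme, in the growth of trabecular muscle and in valve and septum formation. Bulk RNA cannot tell fewer cells of a type from less RNA per cell, which holds for every level below.

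Some of the levels rest on genes that make more than one protein form, and the coding stretches that separate these forms are printed here because the libraries split their reads between forms with and without them. The stretches were read from the GENCODE M21 transcripts on the GRCm38 (mm10) build, 5′ to 3′ on the gene's strand. Capitals mark the bases found only in the longer form, and lower case marks 15 neighbouring bases on each side. The neighbouring bases are joined directly in the shorter transcript in all 4 cases, and every stretch is a whole number of codons.
Tgfb2-206: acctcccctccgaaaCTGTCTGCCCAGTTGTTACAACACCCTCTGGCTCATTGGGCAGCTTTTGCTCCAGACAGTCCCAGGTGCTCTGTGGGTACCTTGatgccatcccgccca
Tgfbr2-202: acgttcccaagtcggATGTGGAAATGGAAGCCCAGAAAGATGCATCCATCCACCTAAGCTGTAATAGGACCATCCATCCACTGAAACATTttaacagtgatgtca
Acvr2b-202 against Acvr2b-205: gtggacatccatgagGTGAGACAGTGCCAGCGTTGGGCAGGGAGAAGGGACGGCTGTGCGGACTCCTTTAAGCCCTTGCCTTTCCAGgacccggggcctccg
Acvr2b-202 against Acvr2b-201: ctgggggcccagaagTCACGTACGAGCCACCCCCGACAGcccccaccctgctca

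The Tgfb2 stretch is a whole exon of 84 bases on chromosome 1 from 186690721 to 186690804, minus strand, and the Tgfbr2 stretch a whole exon of 75 bases on chromosome 9 from 116158271 to 116158345, minus strand. In Acvr2b, on the plus strand of chromosome 9, the stretch of 72 bases from 119428353 to 119428424 is an intron of Acvr2b-205 that is kept as coding sequence in Acvr2b-202, and it begins with GT and ends with AG. The stretch of 24 bases from 119428201 to 119428224 begins an exon of Acvr2b-202 and is absent from Acvr2b-201.

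Of the 47 genes, 38 were detected, meaning 1 TPM or more in both libraries. By the same rule 25.7% of all annotated genes and 56.6% of protein-coding genes were detected. All 11 receptors and all 8 Smads passed, with 11 of 16 ligands, 4 of 7 antagonists, 3 of 4 latent TGF-beta binding proteins, and Tgfbi. The 9 genes that did not pass were the ligands Inhbb, Nodal, Gdf3, Lefty1 and Lefty2, the antagonists Nog, Chrd and Grem1, and Ltbp2. The median level of the detected members was 18.1 TPM, and 18 of the 38 lay above 19.1 TPM, the median of all detected protein-coding genes.

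**Figure D1:**
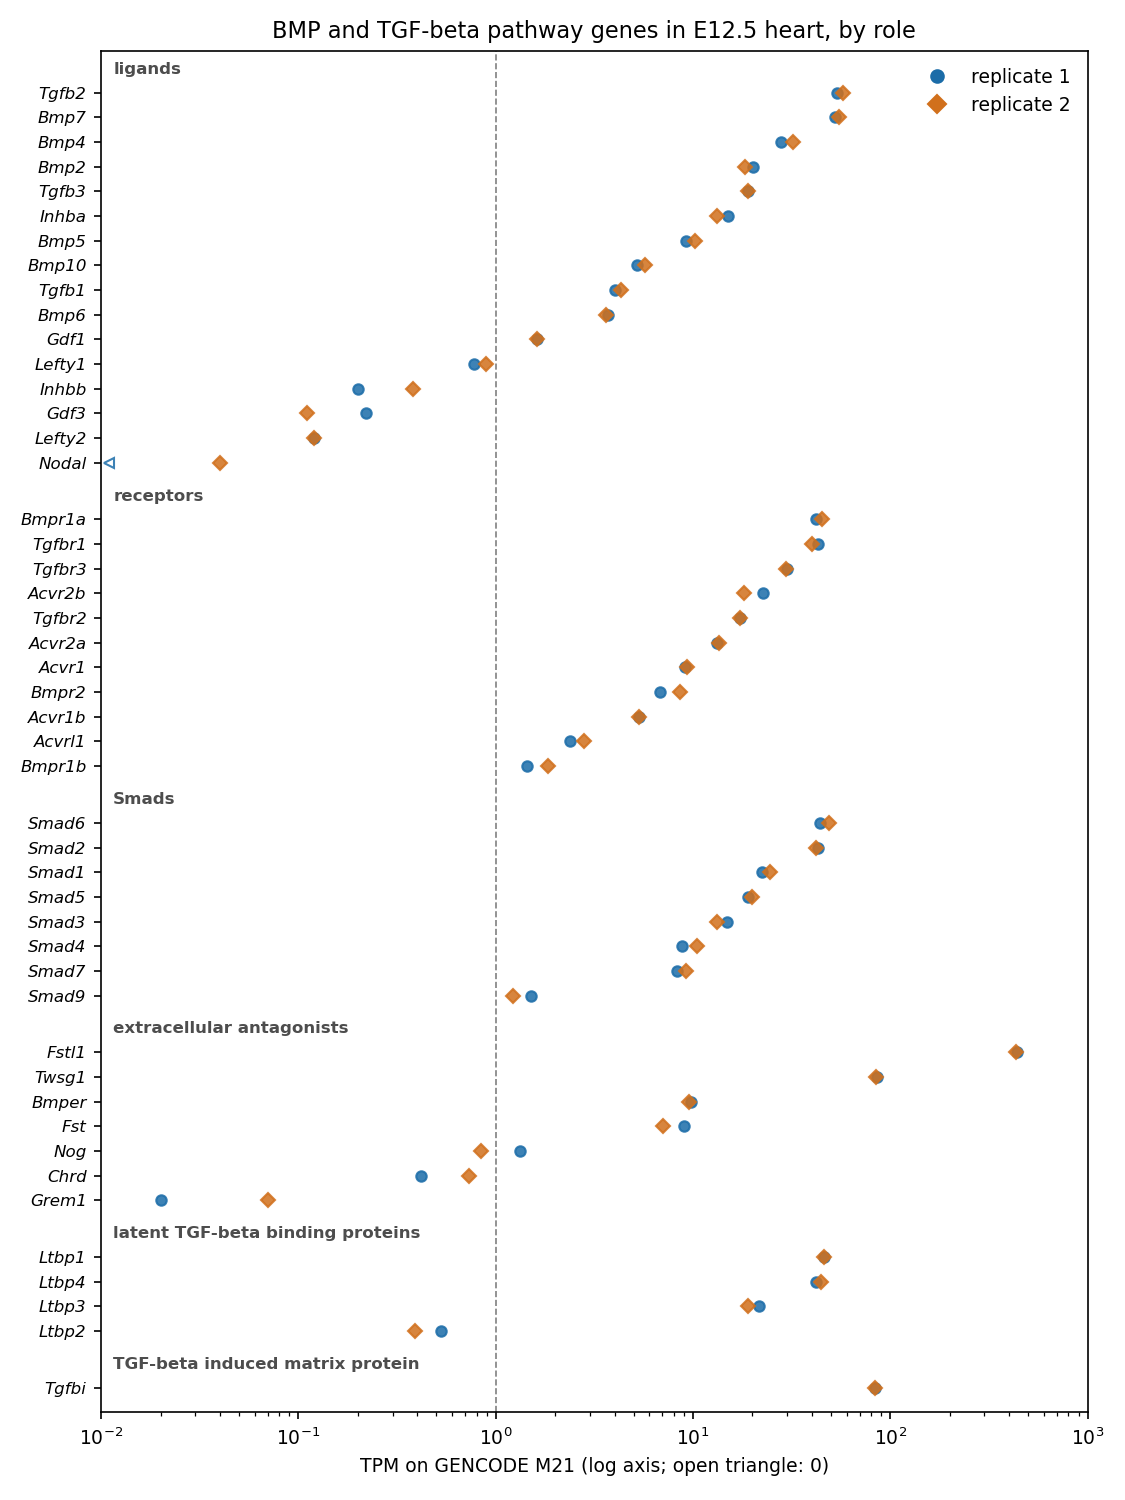
Level of each of the 47 genes in replicate 1 (circles) and replicate 2 (diamonds), in TPM on a log axis, ordered within each role by the mean; the dashed line marks 1 TPM. The receptors and Smads all sit right of the line, while 5 ligands, Chrd, Grem1 and Ltbp2 sit left of it in both libraries and Nog straddles it.

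Among ligands, Tgfb2 and Bmp7 stood highest. Tgfb2, a TGF-beta ligand on chromosome 1 from 186622792 to 186705989, had 54.0 and 57.8 TPM (55.9 ± 2.67, SD). Bmp7, a BMP ligand on chromosome 2 from 172868012 to 172940321, had 52.6 and 55.2 TPM (53.9 ± 1.78). Their ranges overlapped, although Tgfb2 was the higher within each library. Of detected protein-coding genes, 79.3% lay below Tgfb2. Bmp4 came next at 27.9 and 32.1 TPM. Bmp2, a BMP ligand of atrioventricular and outflow myocardium, had 20.2 and 18.3 TPM, and Tgfb3 had 18.9 and 19.0 TPM, ranges that again overlapped.

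The 3 TGF-beta ligands were unequal. Tgfb1, the isoform best known from endothelium and blood cells, had 4.02 and 4.33 TPM, and its libraries lay far below those of Tgfb3 and Tgfb2. The log2 ratio of Tgfb2 over Tgfb1, with 0.5 added to each TPM, was 3.59 ± 0.000763 (SD, n = 2). This SD does not cover the choice of gene model. On the older M4 annotation described below, Tgfb2 had 56.25 and 60.2 TPM and Tgfb1 had 3.58 and 2.89 TPM, a larger ratio in both libraries. Tgfb3 over Tgfb1 gave 2.06 ± 0.0624 and Tgfb2 over Tgfb3 gave 1.53 ± 0.0632. On protein-coding transcripts alone, an alternative chosen after seeing the data, Tgfb2 over Tgfb3 was 0.87. A pair of libraries allows no permutation p below 0.5, so these ratios are given with their spread and no p.

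The BMP ligands were all detected. Bmp7 over Bmp4 gave a log2 ratio of 0.84 ± 0.0937, and Bmp4 over Bmp2 gave 0.62 ± 0.24. Transcripts that are not protein-coding held 20.05% and 22.8% of the Bmp4 TPM, but 2.67% and 3.12% of its reads. On protein-coding transcripts alone Bmp4 had 22.3 and 24.8 TPM, nearer to Bmp2 at 20.2 and 18.3 TPM but still above it in both libraries. Bmp7 stood above Bmp6, a ligand of the same subfamily (3.71 ± 0.0645), and Bmp5, the third of that subfamily, stood below Bmp7 (-2.41 ± 0.0582). Bmp5 had 9.23 and 10.3 TPM and Bmp6 had 3.69 and 3.62 TPM. Bmp10, which is made by heart muscle and is needed for trabecular growth, had 5.21 and 5.69 TPM, or a log2 ratio of -3.19 ± 0.0351 over Bmp7.

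The activin, Nodal and Lefty ligands held most of the genes near 0. Inhba, which encodes the activin A subunit, had 15.1 and 13.2 TPM, against 0.2 and 0.38 TPM of Inhbb, the activin B subunit, on 21 and 35 reads. Lefty1, a Nodal inhibitor of the left-right axis, had 0.78 and 0.89 TPM, and Lefty2, its neighbour in sequence and function, had 0.12 TPM in each library. Gdf3, a Nodal-related ligand of the early embryo, had 0.22 and 0.11 TPM. Nodal itself had 0 reads in replicate 1, which allows up to 0.0609 TPM at 3 reads, and 2 reads or 0.04 TPM in replicate 2. All of these values except Inhba lie under the detection level, and Gdf3 overlapped in range with both Inhbb and Lefty2, while Inhbb lay above Lefty2 in both libraries.

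Gdf1, a Nodal partner, had 1.61 and 1.62 TPM on 49.7 and 45.2 estimated reads. All of its 1349 exonic bases also lie in exons of Cers1, a ceramide synthase gene on the same strand, which had 1.62 and 1.95 TPM. The deposited posterior SD of the Gdf1 count was 8.75 reads in replicate 1 and 9.96 reads in replicate 2, the highest of the 47 genes in both. The level of Gdf1 is therefore uncertain.

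Of the type I receptors, Bmpr1a and Tgfbr1 were the highest and could not be told apart. Bmpr1a, the main BMP type I receptor of the heart, lies on chromosome 14 from 34410734 to 34503341 and had 42.2 and 45.1 TPM. Tgfbr1, the TGF-beta type I receptor on chromosome 4 from 47353222 to 47414931, had 42.8 and 40.3 TPM. Their log2 ratio, Bmpr1a over Tgfbr1, was -0.019 in replicate 1 and 0.16 in replicate 2. Every other type I receptor stood lower: Acvr1, a BMP receptor also called ALK2, had 9.06 and 9.31 TPM, and Acvr1b, the activin receptor ALK4, had 5.31 and 5.33 TPM. Acvrl1, the ALK1 receptor of endothelium, had 2.39 and 2.79 TPM, and Bmpr1b had 1.44 and 1.83 TPM.

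Set against the highest receptors, Bmpr1a over Bmpr1b gave a log2 ratio of 4.38 ± 0.119 and Bmpr1a over Acvr1 gave 2.19 ± 0.0411. Acvr1b over Tgfbr1 gave -2.85 ± 0.0649, and Acvrl1 over Tgfbr1 gave -3.77 ± 0.194. The type II receptors were closer together. Acvr2b, an activin type II receptor, had 22.6 and 18.1 TPM, Tgfbr2 had 17.3 TPM in each library, and Acvr2a had 13.2 and 13.5 TPM. On protein-coding transcripts alone Acvr2b had 17.35 and 15.58 TPM, against 17.25 and 17.33 TPM for Tgfbr2. On M4 Acvr2b had 20.3 and 17.7 TPM, against 20.0 and 20.3 TPM for Tgfbr2. By both of these Tgfbr2 was the higher in replicate 2, so their order depends on the transcripts counted. Bmpr2, the BMP type II receptor, was the lowest of the 4 at 6.78 and 8.61 TPM, a log2 ratio of -1.13 ± 0.224 over Tgfbr2. Tgfbr3, the betaglycan co-receptor that presents TGF-beta2 to its receptors, had 29.8 TPM in each library.

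**Figure D2:**
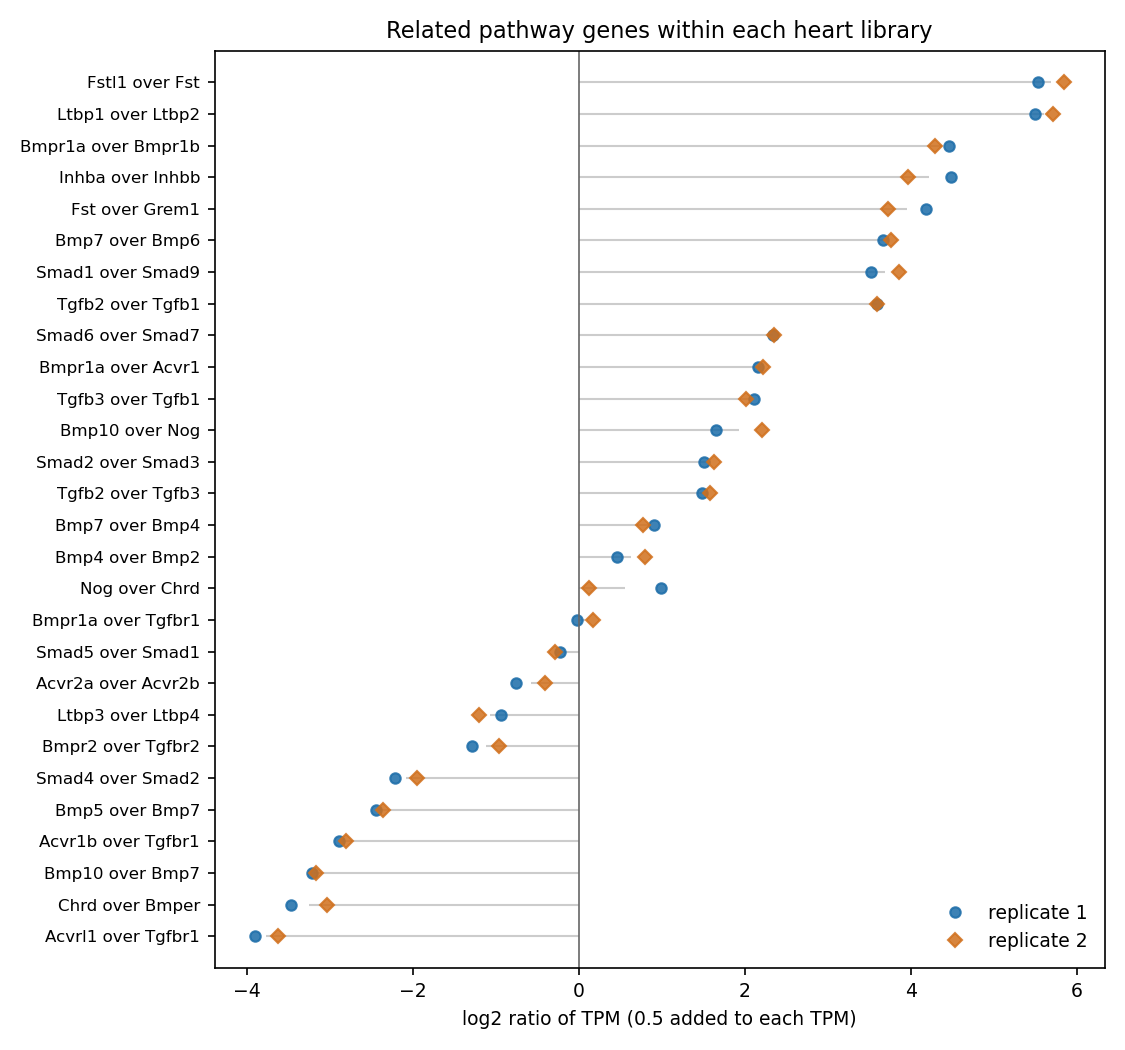
Log2 ratio of TPM for 28 pairs of related genes, in replicate 1 (circles) and replicate 2 (diamonds), with 0.5 added to each TPM; grey lines run from 0 to the mean. In 27 pairs both libraries lie on the same side of 0, and Bmpr1a over Tgfbr1 is the pair whose libraries fall on either side.

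The Smads ranged over more than an order of magnitude, and the inhibitory Smad6 stood at the top. Smad6, which blocks BMP receptor signalling and is known for its role in valve development, lies on chromosome 9 from 63953076 to 64022059 and had 44.0 and 48.9 TPM. Smad2 had 42.8 and 41.9 TPM, below both values of Smad6. Smad7, the other inhibitory Smad, had 8.27 and 9.23 TPM, and Smad6 over Smad7 gave a log2 ratio of 2.34 ± 0.00193.

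Of the BMP-regulated Smads, Smad1 had 22.5 and 24.5 TPM and Smad5 had 19.0 and 20.0 TPM, while Smad9 had 1.51 and 1.22 TPM. Smad1 over Smad9 gave a log2 ratio of 3.69 ± 0.247, and Smad5 over Smad1 gave -0.26 ± 0.0381. Smad5 had more reads than Smad1 (2968 and 2851, against 1615 and 1481) on a longer transcript, so the order holds per length only. Of the TGF-beta-regulated Smads, Smad3 had 14.8 and 13.2 TPM, and Smad2 over Smad3 gave 1.56 ± 0.0876. Smad4, the partner that all receptor-regulated Smads share, had 8.80 and 10.5 TPM, a log2 ratio of -2.08 ± 0.189 over Smad2. Smad4 and Smad7 overlapped in range, although Smad4 was the higher within each library.

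The antagonists ranged from 0.02 to 437 TPM. Fstl1, a secreted follistatin-like glycoprotein, was the highest of all 47 genes at 437 and 435 TPM, and 97.9% of detected protein-coding genes lay below it. It lies on chromosome 16 from 37776873 to 37836514. Twsg1, a BMP-binding modulator that works with chordin, had 85.5 and 84.7 TPM. Bmper, a BMP-binding protein of endothelium, had 9.72 and 9.57 TPM, and Fst, the activin-binding follistatin, had 8.96 and 7.06 TPM. No 2 neighbours in this order overlapped.

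The classical BMP antagonists were scarce. Nog (noggin) had 1.32 and 0.84 TPM in replicates 1 and 2, on 52 and 30 reads, so the 2 libraries fall on either side of the detection level. Chrd (chordin) had 0.42 and 0.73 TPM on 33 and 34 reads, a case in which nearly equal read numbers gave unequal TPM. In replicate 2 only 56.3% of the Chrd level was placed on its most used transcript, against 100% in replicate 1. Grem1 (gremlin) had 0.02 and 0.07 TPM on 2 and 6 reads, with exact Poisson 95% intervals of 0.242 to 7.22 and 2.2 to 13.1 reads. Fstl1 over Fst gave a log2 ratio of 5.69 ± 0.225, Fst over Grem1 3.96 ± 0.322, Chrd over Bmper -3.25 ± 0.311 and Bmp10 over Nog 1.93 ± 0.395. Ratios to genes near 0 depend on the amount added to each TPM, and Fst over Grem1 ran from 3.10 to 5.82 with 1 or 0.1 added. On M4, Fstl1 over Fst was 6.46. Nog over Chrd, at 0.98 in replicate 1 and 0.12 in replicate 2, varied as much as its own mean.

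Of the latent TGF-beta binding proteins, which tether TGF-beta precursors to the matrix, Ltbp1 had 46.1 and 46.2 TPM, Ltbp4 42.2 and 44.4 TPM and Ltbp3 21.7 and 18.9 TPM. Ltbp2, the family member that does not bind latent TGF-beta, had 0.53 and 0.39 TPM on 65.8 and 32.1 reads. The log2 ratio of Ltbp1 over Ltbp2 was 5.61 ± 0.151, and that of Ltbp3 over Ltbp4 was -1.08 ± 0.186, or -2.01 on the older M4 annotation described below. Tgfbi had 83.6 TPM in each library.

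By role, the median level was 4.62 and 5.01 TPM over the 16 ligands, 13.2 and 13.5 TPM over the receptors, and 16.9 and 16.6 TPM over the Smads. It was 8.96 and 7.06 TPM over the antagonists and 31.9 and 31.7 TPM over the latent binding proteins. These medians depend on the genes and models counted: on M4 the antagonists had 4.78 TPM, and over detected members alone the ligands had 14.2 TPM, above the receptors at 13.3 TPM, and the antagonists 47.4 TPM. Within roles, 6 of 41 neighbouring pairs in the order of levels had overlapping ranges, 4 of them among ligands. The deposited posterior SD of the count, which measures how uncertainly reads were shared between similar loci, was 0 in both libraries for 34 of the 47 genes and under 10 reads for all 47.

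The level of a gene in TPM depends on which transcripts its reads are placed on, since a short transcript gives more TPM per read. The share on the highest transcript was under 60% on average in 6 of the 38 detected genes, Tgfb2, Acvrl1, Acvr2b, Smad2, Fst and Ltbp3, and at least 90% in 22. In 3 genes, Tgfb1, Tgfb2 and Ltbp3, under 75% of the TPM lay on protein-coding transcripts in both libraries. The rest lay on transcripts of other types, such as retained introns.

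For Tgfb2, transcripts of other types held 36.2% of the TPM in replicate 1 and 38.1% in replicate 2, but 8.85% and 8.96% of the reads. On protein-coding transcripts alone Tgfb2 had 34.5 and 35.8 TPM, against 47.01 and 50.8 TPM of Bmp7 by the same count. With all transcripts counted, the ranges of Tgfb2 and Bmp7 overlapped and Tgfb2 was the higher within each library. On protein-coding transcripts alone Bmp7 stood above Tgfb2 in both libraries. For Ltbp3 the other types held 43.2% and 34.0% of the TPM, against 27.6% and 27.2% of the reads.

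**Figure D3:**
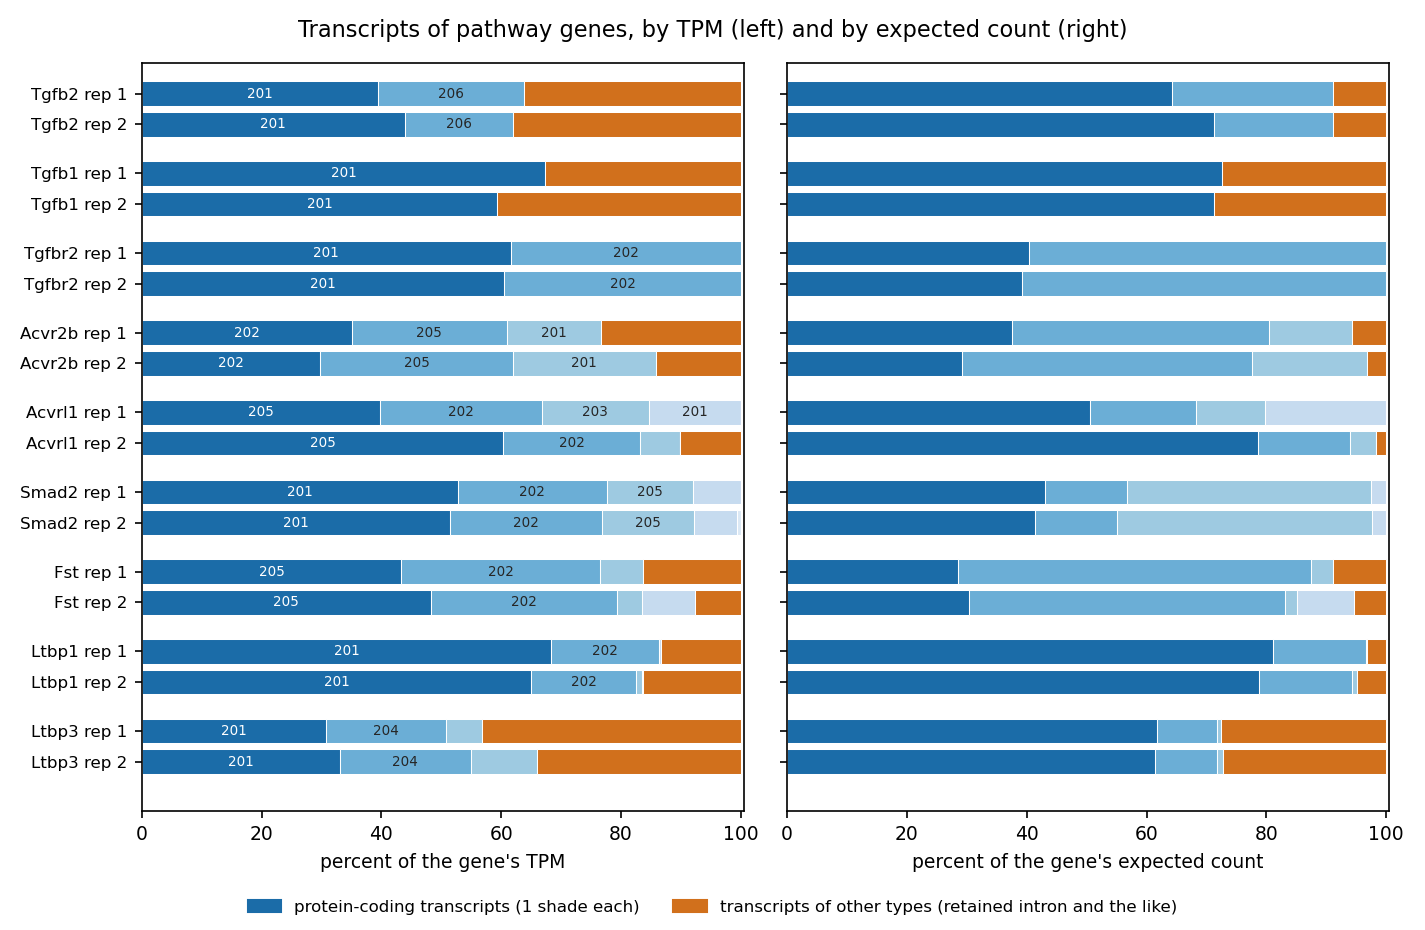
Share of each gene's TPM (left) and of its expected counts (right) on each transcript, in percent, for 9 genes in replicate 1 and replicate 2; blue shades are protein-coding transcripts, labelled on the left by transcript number, and orange is the sum of all other types. The orange part of Tgfb2 covers 36.2% and 38.1% on the left and 8.85% and 8.96% on the right.

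The protein forms below were chosen after their values were seen. The longer Tgfb2 form of 442 residues, which carries the 84-base exon printed above in the latency-associated propeptide, had 13.2 and 10.4 TPM on Tgfb2-206. The form of 414 residues had 21.2 and 25.4 TPM on Tgfb2-201, so the longer form was 33.7% ± 6.5 (SD, n = 2) of the coding level. The longer form had 1103 and 787 reads, with posterior SDs of 88.5 and 83.2 reads, and whether its share differed between the libraries was not tested. For Tgfbr2, the form of 592 residues with the 75-base exon in the extracellular part had 6.62 and 6.85 TPM, and the form of 567 residues had 10.6 and 10.5 TPM. The longer form made up 39.0% ± 0.813 of the level. By reads it made up 59.6% and 60.8%, so which form leads depends on the scale.

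Smad2, on chromosome 18, has a form of 467 residues and a form of 437 residues that lacks an exon in the DNA-binding part and is known to bind DNA directly. The full form, summed over Smad2-201 and Smad2-205, had 28.7 and 28.0 TPM, or 67.0% ± 0.241 of the coding level. The shorter form had 10.6 TPM in each library, or 25.1% ± 0.34. By reads the shorter form was 13.6% of the coding reads in each library, and the full form 83.9% and 84.1%. For Acvr2b, the form of 536 residues with both printed stretches had 7.92 and 5.41 TPM. The form of 512 residues without the 72-base stretch had 5.87 and 5.82 TPM, and the form of 528 residues without the 24-base stretch had 3.56 and 4.35 TPM. By TPM the longest form led in replicate 1 and the form of 512 residues in replicate 2. By reads the longest form had 390 and 241 reads, against 446 and 399 reads for the form of 512 residues, which led in both libraries.

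Fst makes a short and a long follistatin, which differ in an acidic tail that affects binding to the cell surface. The form of 343 residues (Fst-205) had 3.88 and 3.40 TPM and the form of 317 residues (Fst-202) 2.97 and 2.2 TPM. By reads the shorter form led, at 58.8% and 52.7% of all Fst reads, against 28.6% and 30.3% for the longer. The longer Ltbp1 form of 1712 residues had 31.5 and 30.0 TPM, against 8.28 and 8.07 TPM of the form of 1341 residues, and it led by TPM and by reads. In Acvrl1 every protein-coding transcript with TPM encodes 502 residues, so the split between these transcripts does not change the protein length. In replicate 2, 10.1% of the Acvrl1 TPM lay on Acvrl1-208, a transcript of another type, on 2.77 estimated reads.

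Between the libraries, none of the 43 tested members differed by an adjusted p under 0.05 (exact conditional binomial test on TMM-scaled counts, Benjamini-Hochberg over all 17970 tested genes) together with a change of 1 or more on the log2 scale. By this rule 1.45% of all tested genes were called. The test covers counting error in these libraries only. Without the fold limit 9 of the 43 passed, or 20.9%, against 9.71% of all tested genes. The test passes smaller changes in genes with more reads, and these shares were not compared at equal read numbers. The median absolute log2 ratio was 0.095 for the members and 0.099 for all tested genes.

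The 9 genes that passed at any fold were Bmp2, Tgfbr1, Bmpr1a, Bmpr2, Acvr2b, Smad3, Smad6, Fstl1 and Ltbp2. The largest ratio among them was that of Ltbp2, with a log2 ratio of replicate 1 over replicate 2 of 0.92 (95% interval 0.30 to 1.59; adjusted p = 0.0348 by the exact conditional binomial test). Bmpr2 was lower in replicate 1 (-0.21, interval -0.30 to -0.13) and Acvr2b higher (0.22, interval 0.086 to 0.35). The smallest change was that of Fstl1, 0.078 with an interval of 0.055 to 0.101, on 32703 and 28638 reads. For the 4 genes with fewer than 20 reads in all, Nodal, Gdf3, Lefty2 and Grem1, no test was made.

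**Figure D4:**
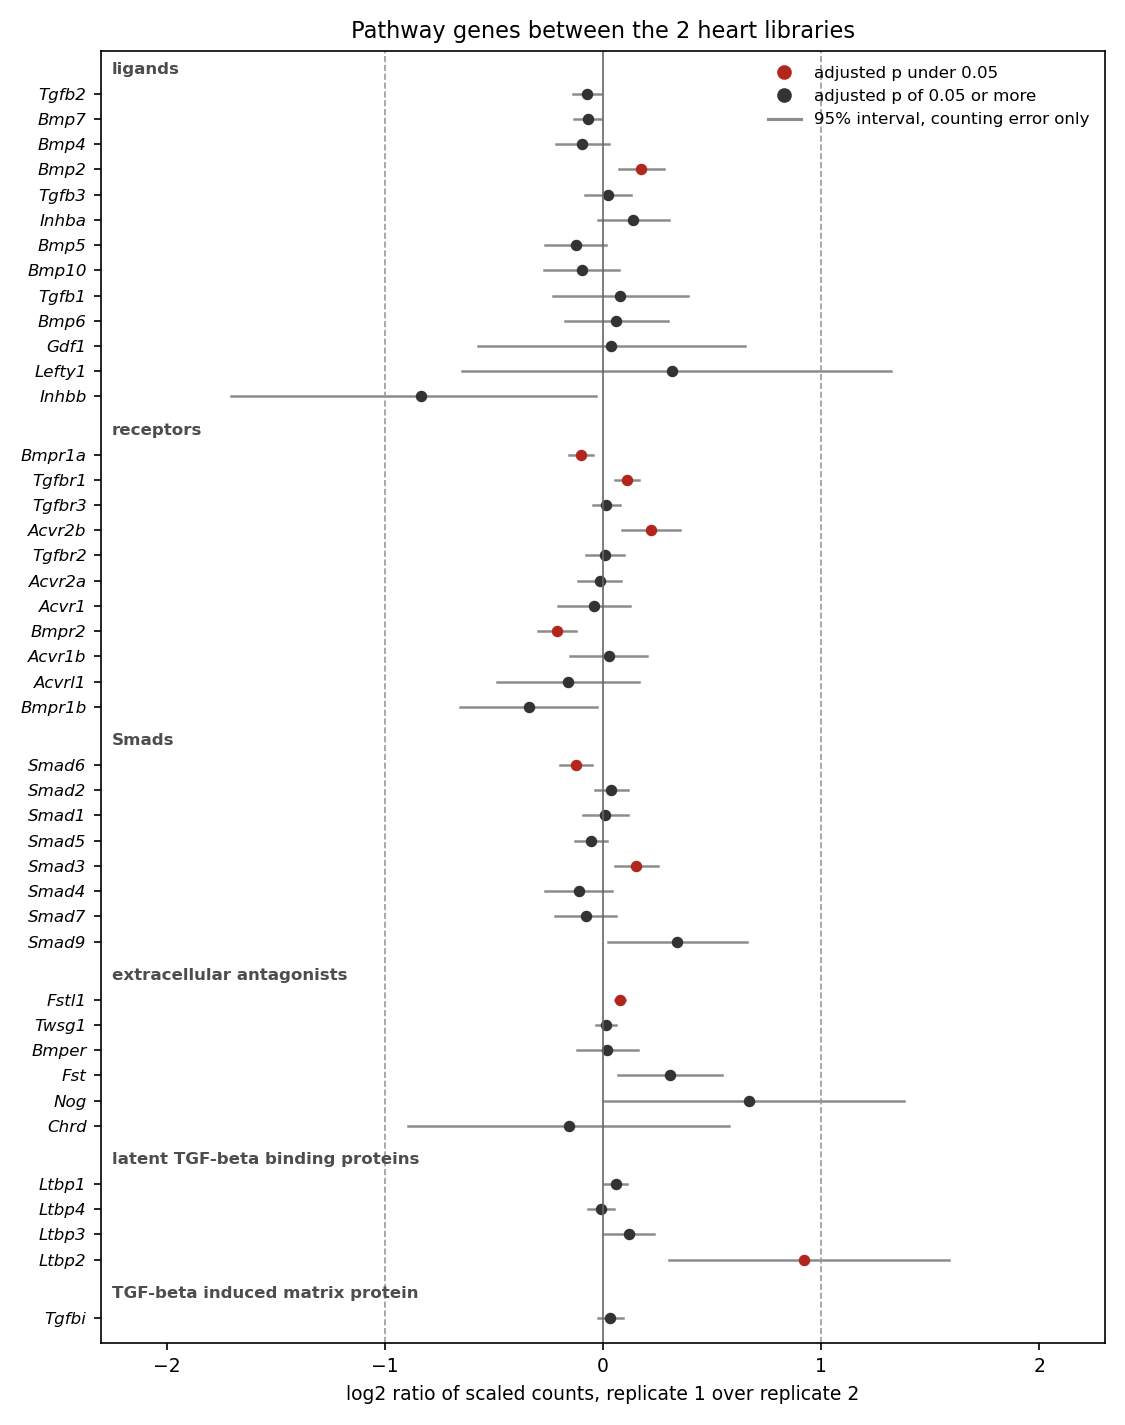
Log2 ratio of TMM-scaled counts, replicate 1 over replicate 2, for the 43 tested genes, with exact 95% intervals for counting error; red points have an adjusted p under 0.05, and dashed lines mark a log2 ratio of 1 in either direction. No point lies past a dashed line, and Ltbp2 is the red point nearest to it at 0.92.

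The same reads were also quantified by the authors on GENCODE M4, an older annotation, which shows how far a level rests on the gene model. Of 37 members that could be compared, none had a log2 ratio of TPM of 1 or more in size in both libraries, against a background of 2.83% of 13830 genes. Over all genes compared the median log2 ratio of M21 over M4 was -0.054 in replicate 1 and -0.055 in replicate 2, and over the members it was -0.059 and -0.060. In 34 of the 37 the ratio was within 0.25 of 0 in both libraries.

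The 3 exceptions were Ltbp3, Fst and Tgfb1. Ltbp3 had 21.7 and 18.9 TPM on M21, against 11.03 and 10.3 TPM on M4, while its reads numbered 1359 and 1157 on M21 and 1326 and 1123 on M4. The effective length of Ltbp3 in replicate 1 was 2543 bases on M21 and 5091 bases on M4. Fst had 8.96 and 7.06 TPM on M21, against 5.14 and 4.41 TPM on M4. For Tgfb1 the ratios were 0.15 in replicate 1 and 0.51 in replicate 2.

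By reads, 1 member, Bmp10, passed the same limit, against a background of 2.26% of genes. Bmp10 had 564 and 558 reads on M21 and 172 and 177 reads on M4, a log2 ratio of 1.71 in replicate 1 and 1.65 in replicate 2. Its effective length was 4391 bases on M21 and 1218 bases on M4, so that its TPM stayed close, at 5.21 and 5.69 on M21 against 5.98 and 6.80 on M4. The M21 model has 2 exons with 4490 bases in all, of which 1263 are coding, and it lies on chromosome 6 from 87428994 to 87437677. Gdf1 had no value on M4 under the same identifier.

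**Figure D5:**
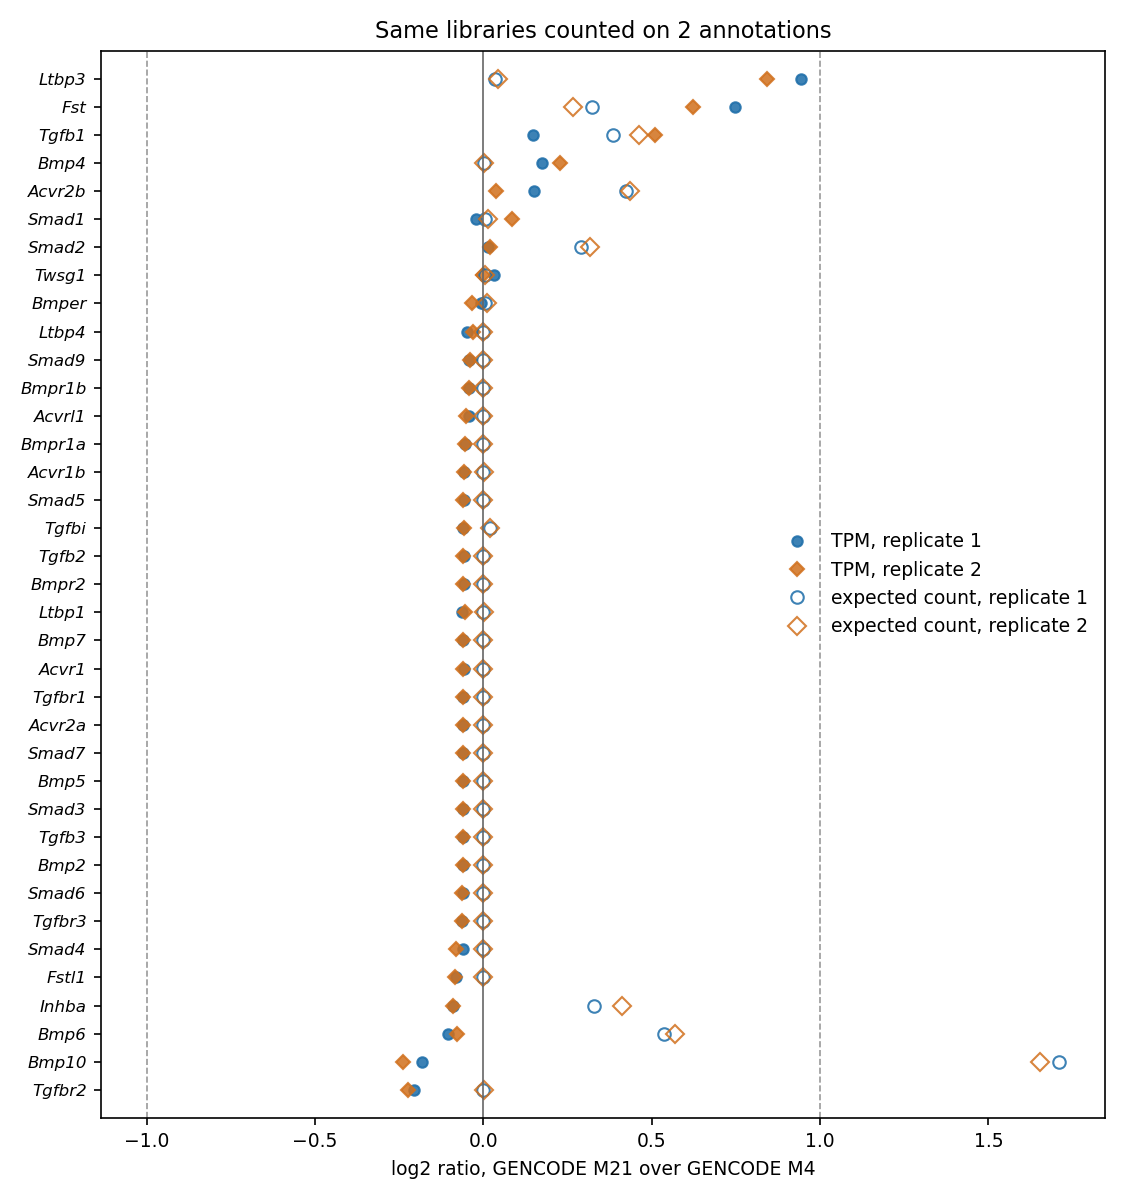
Log2 ratio of M21 over M4 for the 37 genes compared, for TPM (filled) and expected count (open) in replicate 1 (circles) and replicate 2 (diamonds); dashed lines mark a log2 ratio of 1. Most points lie near 0, Ltbp3 and Fst stand to the right in TPM, and Bmp10 stands past the line at 1.71 and 1.65 in counts.

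Neighbouring genes can add reads to some members, since the use of strand is not given in the sources used here. Exons of 15 members overlap exons of another gene, and 13 of these overlaps include an antisense gene. In 6 the overlapping gene had at least 1 TPM in both libraries. The most abundant was Txndc5, at 199 and 201 TPM, which shares 224 exonic bases with Bmp6, a gene with 3.69 and 3.62 TPM. Orc4, at 76.6 and 82.5 TPM, shares 446 bases with Acvr2a. Upf1, at 19.2 and 19.9 TPM, shares 63 bases with Gdf1.

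A further 71 genes of the pathway were listed by function, and 48 of them were detected. Of 17 other ligands, 5 passed, led by Mstn (myostatin) at 10.3 and 10.2 TPM, Inha (the inhibin alpha subunit) at 5.89 and 7.2 TPM and Gdf6 at 5.18 and 4.53 TPM. The lowest of the 11 that were under 1 TPM in both libraries were the activin-related subunits Inhbe, at 0.01 and 0 TPM, and Inhbc, at 0.05 and 0 TPM. Of 8 other receptors and co-receptors, 5 passed. Eng (endoglin, the endothelial co-receptor) had 124 and 131 TPM, Bambi (a pseudoreceptor that damps signalling) 44.6 and 45.9 TPM and Rgmb (a BMP co-receptor) 12.2 and 10.8 TPM. The Nodal co-receptors Tdgf1 and Cfc1 were the lowest, at 0.02 and 0.07 TPM and at 0.25 and 0.33 TPM.

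Of 11 other extracellular antagonists, 6 passed, led by the matrix proteoglycans Dcn at 75.3 and 67.6 TPM and Bgn at 56.3 and 56.7 TPM, and by Fstl3, a follistatin relative, at 17.2 and 16.4 TPM. Cer1, a Nodal antagonist, had 0.02 and 0.08 TPM. Among 12 genes of ligand processing and matrix storage, 11 passed. Emilin1, a matrix protein that limits TGF-beta processing, had 147 and 140 TPM, Thbs1, an activator of latent TGF-beta, 86.3 and 91.3 TPM and Fbn2, a fibrillin, 72.3 and 80.2 TPM. Itgb6, an epithelial integrin subunit that releases TGF-beta, had 0.11 and 0.13 TPM.

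Inside the cell, 11 of 12 regulators passed, led by Fkbp1a, which binds and holds type I receptors inactive, at 588 and 616 TPM. Usp15, a deubiquitinase, had 55.1 and 56.3 TPM and Ppm1a, a phosphatase reported for Smads, 50.9 and 51.0 TPM. Foxh1, a Nodal-pathway cofactor of Smad2, had 0.35 and 0.07 TPM. Of 11 reported target genes, 10 passed, and the BMP targets Id2 (339 and 344 TPM), Id3 (251 and 250 TPM) and Id1 (68.7 and 70.8 TPM) stood highest. None of the 59 of these 71 genes that were tested was called between the libraries, against the background of 1.45%.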

How the data were processed

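PolyA RNA-seq of E12.5 mouse heart was available as gene and transcript tables of 2 libraries. The deposited expected counts split ambiguous reads between genes and were rounded before testing. The authors' TPM values are levels scaled by transcript length, and the deposited percent values give each transcript's share of its gene. The posterior mean TPM, the posterior SD of the count and the effective length are also the authors'. The annotations are GENCODE M21 and M4 on mm10, per the README text of the submitters. The aligner, the counter and their versions were not given in the sources used here. Depth was 34248993 and 31394912 estimated reads on genes in replicates 1 and 2.

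Levels are given per library, with mean ± SD (n = 2) where summarised. Ratios within a library used 0.5 added to each TPM. Libraries were compared by a two-sided exact conditional binomial test (scipy 1.17.1) on counts scaled by TMM (edgeR 4.0.16). Genes needed 20 or more reads over both libraries, and p-values were adjusted by Benjamini-Hochberg; DESeq2 1.42.0 size factors were an alternative. The test was checked on simulated counts with known changes and counting error alone, so the check does not cover other variation between libraries. Poisson intervals and the limit for 0 reads (3 reads) cover counting error only. Genes were named as all members by role, with the 3 highest and the 2 lowest under 1 TPM of each further list. A few genes that this rule names are not reported here. The members, lists and tests were chosen with earlier results of these data known. The protein forms, and the comparison over protein-coding transcripts alone, were chosen after the data were seen.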

Additional observations from a re-analysis of the deposited data

How the results depend on the processing

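The count of detected members lay between 35 and 46, against 38, under the detection rules, tables and libraries tried, and 38 and 39 with 1 library left out. With 1 library left out, class medians are simply those of the other library: 4.62 to 5.01 TPM for ligands, 13.2 to 13.5 for receptors, 16.6 to 16.9 for Smads, 7.06 to 8.96 for antagonists and 31.7 to 31.9 for latent binding proteins. On the M4 tables they were 6.39, 13.9, 17.5, 4.78 and 27.6 TPM in that order. The M4 ligand median leaves out Gdf1, which has no M4 value, and falls on Bmp10. Bmp10 itself had 5.21 and 5.69 TPM on M21, against 5.98 and 6.80 TPM on M4. The 2 ligand medians thus cover unlike sets of genes. Over detected members only, they were 14.2 for ligands, 47.4 for antagonists and 43.3 for latent binding proteins. By posterior mean TPM, Smads had 17.1 and latent binding proteins 33.1. On protein-coding transcripts only, an alternative chosen after seeing the data, Smads had 16.5 and latent binding proteins 24.8. Of 28 pairs, 23 kept their sign under every alternative. Expected counts not divided by length turned Bmp4 over Bmp2 (-0.51), Bmpr2 over Tgfbr2 (0.043), Acvr2a over Acvr2b (0.91) and Smad5 over Smad1 (0.91), since the members of a pair differ in length. Bmpr1a over Tgfbr1 ran from -0.019 to 0.16 with 1 library left out. No member was called between libraries under other scalings, which shifted every log2 ratio by -0.012 to 0.0095, other count minimums or the M4 tables; at an absolute log2 ratio of at least 0.5, 1 was called (Ltbp2). Expected counts in place of TPM gave 1 member that differed between annotations (Bmp10). Counts in place of TPM moved 6 of 7 shares of the longer protein form, and the cause is the length of the transcripts. No paired analysis was possible because the series has a single group. With 1 library left out no comparison between libraries remains.

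With 2 libraries of pooled embryos, levels under about 1 TPM rest on few reads, and no permutation p for a difference between genes can fall below 0.5. Levels between genes carry length and coverage bias that both libraries share.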
